A study of Mus musculus with 18 samples.

Results

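The 4 accessory clock repressor genes Nfil3, Bhlhe40, Bhlhe41 and Ciart held 24 of the 11366 BMAL1 peaks in 3 tissue lists, and these 24 peaks formed 8 sites, each with a peak in liver, kidney and heart. Over the whole series, 519 of the 9005 regions formed by merging overlapping peaks had a peak in all 3 lists. A peak was taken when its centre lay inside 1 of the 4 genes or within 10 kb of either end of it, on the mouse build GRCm38. Binding of the clock transcription factor BMAL1 was measured by ChIP-seq, in which fragments of chromatin pulled down with an antibody are sequenced. All 18 libraries came from wild type C57BL/6 mice aged 3 to 6 months, with unrestricted food and water under 12 h of light and 12 h of darkness. The 6 groups were ChIP and input (sonicated chromatin without antibody) from liver, from kidney and from heart, with 3 libraries in each group. Organs were taken 6 h after lights on, so a single time of day was sampled, and each organ is a mixture of cell types. The antibody was an affinity-purified chicken antibody against the N-terminal domain of mouse BMAL1.

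There were 4813 peaks in the list for liver, 4034 in that for kidney and 2519 in that for heart. Each list pooled the 3 animals, so no value here has an error between animals, no test was made, and the read depth behind the lists is unknown. The heart input libraries carry kidney as their source name, while their titles and tissue labels read heart; they were kept as heart, and every heart value rests on that. The lists give no expression, so the labelled organs were not checked against marker genes. A whole-number score accompanies each peak. It is the authors' own value with an unknown scale, so scores are ranked only within a list (rank 1 is the highest score, and tied peaks share the better rank).

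BMAL1 pairs with CLOCK, and the pair binds E-boxes, short DNA elements of which CACGTG is the canonical form. Among the genes it switches on are repressors that act back on the clock. The PER and CRY proteins are the best known of these. The 4 genes described here also encode repressors tied to the clock, and whether BMAL1 switches each of them on was not tested. BHLHE40 and BHLHE41 (also called DEC1 and DEC2) are a pair of related basic helix-loop-helix repressors that bind E-boxes themselves. CIART (CHRONO) is recruited to BMAL1 and represses the transcription it drives. NFIL3 (E4BP4) is a basic leucine zipper repressor that binds D-box elements, the same elements that the activators DBP, TEF and HLF use.

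At 2 of the 8 sites the bound DNA lay in a promoter window with known sequence, and these sequences are shown because they contain the element that BMAL1 and CLOCK are known to bind. Both are the kidney peaks, read from RefSeq (GRCm38.p6) on the minus strand, 5′ to 3′ in the direction of transcription, with each CACGTG in capitals. The Ciart stretch is chr3:95882210-95882397 and the Bhlhe41 stretch is chr6:145865474-145865661.
Ciart: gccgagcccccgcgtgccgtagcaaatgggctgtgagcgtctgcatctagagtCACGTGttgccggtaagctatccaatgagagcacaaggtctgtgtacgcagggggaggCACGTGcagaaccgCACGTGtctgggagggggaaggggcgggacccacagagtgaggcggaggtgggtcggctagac
Bhlhe41: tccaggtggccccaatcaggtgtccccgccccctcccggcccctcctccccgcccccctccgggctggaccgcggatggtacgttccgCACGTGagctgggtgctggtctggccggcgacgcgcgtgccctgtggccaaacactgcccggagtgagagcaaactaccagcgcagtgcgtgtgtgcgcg
The Ciart peak held 3 copies of CACGTG, of which the second and the third were separated by 8 bases and the first and the second by 52 bases. The same 3 copies lay within the liver and the heart peak. The Bhlhe41 peak held 1 copy, which was also present in the heart peak and in the 236 of 242 bases of the liver peak that the window covers. That copy was centred 3 bp from the middle of the kidney peak, 4 bp from that of the heart peak and 15 bp from that of the liver peak. At Ciart the peak centre fell between the first copy and the closely spaced pair in every list. The nearest copy was 19 bp away in liver and heart and 20 bp away in kidney. Over all peaks wholly inside a promoter window and with a CACGTG, the median distance of the nearest copy from the centre was 17 bp (liver), 18.5 bp (kidney) and 21 bp (heart). It was at most 20 bp in 57% of these peaks in liver, 56.3% in kidney and 46.8% in heart, so the Ciart distances were ordinary. How many peaks had a copy as close as 3 or 4 bp, as at Bhlhe41 in kidney and heart, was not counted.

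**Figure D1:**
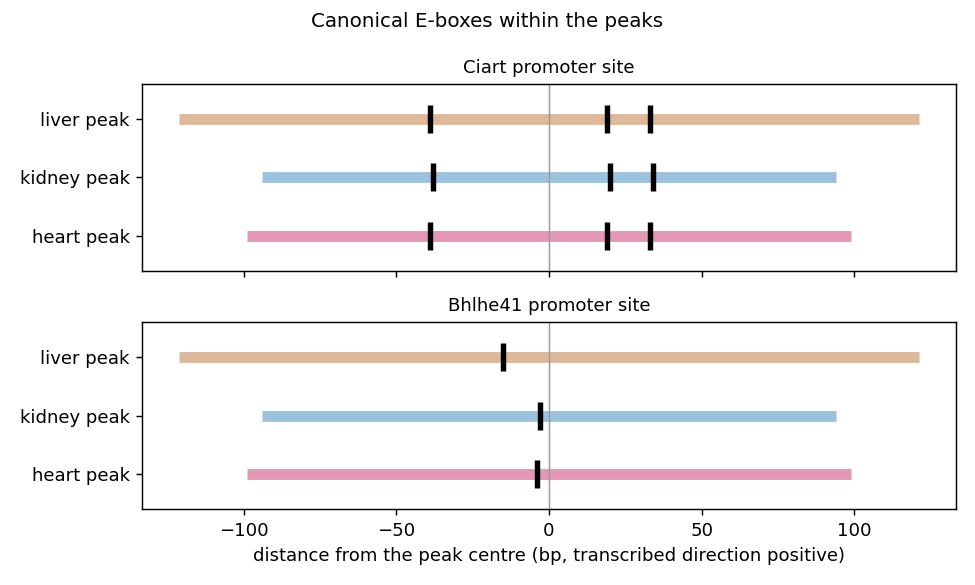
Position of canonical E-boxes (black ticks) in the liver, kidney and heart peaks (coloured bars, drawn to their width) at the Ciart and Bhlhe41 promoters, as distance from the peak centre in bp with the transcribed direction positive. At Ciart 1 E-box lay upstream of the centre and 2 downstream in each list, and at Bhlhe41 the single E-box lay 3 to 15 bp upstream of it.

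The canonical E-box was common in BMAL1 peaks at promoters, and 3 copies were rare. RefSeq windows of 300 bases, from 250 before to 50 after a start, held CACGTG in 7.2% of cases (2345 of 32585) and 3 or more copies in 0.089% (29 windows). Of kidney peaks that lay wholly inside such a window, 40.7% held CACGTG (190 of 467, exact Clopper-Pearson 95% interval 36.2 to 45.3%), and 1.5% held 3 or more (7 peaks). Among those of them within the top 500 of the kidney list, as the Ciart and Bhlhe41 peaks are, 60.8% held CACGTG (59 of 97) and 4.12% held 3 or more (4 peaks). The share with CACGTG was 49.5% in liver (93 of 188, 42.1 to 56.8%) and 43.3% in heart (77 of 178, 35.9 to 50.9%). Within the top 500 it was 58.1% in liver (25 of 43) and 60.8% in heart (48 of 79). These intervals cover counting error only. CACGTT, or AACGTG on the other strand, was in neither printed sequence and in 4.72% of all windows. CANNTG, which includes every CACGTG, was matched 4 times at Ciart and 3 times at Bhlhe41 in the kidney peaks. At least 1 match was in 72.3% of all windows, which are longer than the peaks. There were 3 or more in 17.6% of windows and in 10.3% of the kidney peaks wholly inside a window. A pair of E-box-like elements 6 or 7 bases apart, with CACGTG or the form just named as 1 of them, was in neither sequence and in 0.199% of windows. The D-box (TTATGTAA, TTACATAA or TTACGTAA, 1.06% of windows) and the ROR element (AGGTCA, or TGACCT on the other strand, 16.2% of windows) were not matched in either peak. The Nfil3 promoter window (chr13:52980990-52981289, minus strand) overlapped no peak, and it held no CACGTG or CACGTT, 1 CANNTG and 1 ROR element. No window for Bhlhe40 was used here.

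All 4 genes had peaks in all 3 lists and at least 1 site common to the lists. By the same rule 18.3% of the 21631 protein-coding genes had a liver peak, 18.2% a kidney peak and 11.7% a heart peak, and 3.13% had a common region (676 genes). A long gene has a wider window, but the 4 genes are short, from 3758 bp for Ciart to 15670 bp for Nfil3. Among the 10177 protein-coding genes no longer than Nfil3 the shares were 12.9, 13.7 and 7.02%, and 2.61% had a common region. Both Bhlhe genes had 3 common regions each. Only 10 protein-coding genes in all (0.0462%) had 3, and none had more; the other 8 were Car11, Dbp, Hlf, Klf9, Nr1d1, Sphk2, Tef and Usp2. Of these, Car11, Dbp and Sphk2 had the same best ranks of 3, 4 and 3 in the liver, kidney and heart lists. By this rule 1 peak can count for several genes, so these genes may share their regions and the 10 genes may be fewer loci. Every member gene also had a peak among the top 500 of each list, a limit chosen after the values were seen; 1.44% of protein-coding genes did. The genes had been named with earlier results of these lists known, so these counts describe them.

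The 8 sites all scored above the median of each list. In the liver list their scores ran from 119 to 269 with a median of 187.5, against a median of 40 over all liver peaks. In kidney they ran from 84 to 219 with a median of 122.5, against 28. In heart they ran from 51 to 250 with a median of 159.5, against 25. Their ranks ran from 14 to 292 in liver, from 17 to 303 in kidney and from 11 to 464 in heart. Among the first 100 peaks of the list were 6 of the 8 in liver (of 4813 peaks), 4 in kidney (of 4034) and 6 in heart (of 2519). That cut takes a larger share of a shorter list, so it was loosest in heart. Within the top 5% of each list were 7 of the 8 in liver, 5 in kidney and 6 in heart. Peak centres of the 3 lists fell close together at each site, within 1 bp at Ciart and within 54 bp at the most distant (a Bhlhe41 site), with a median of 18.5 bp. Over all 519 regions common to the lists the median was 27 bp. Ranked by score among these regions, not every site stood high, with Nfil3 at 348 in heart and 1 Bhlhe40 site at 223 in kidney.

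**Figure D2:**
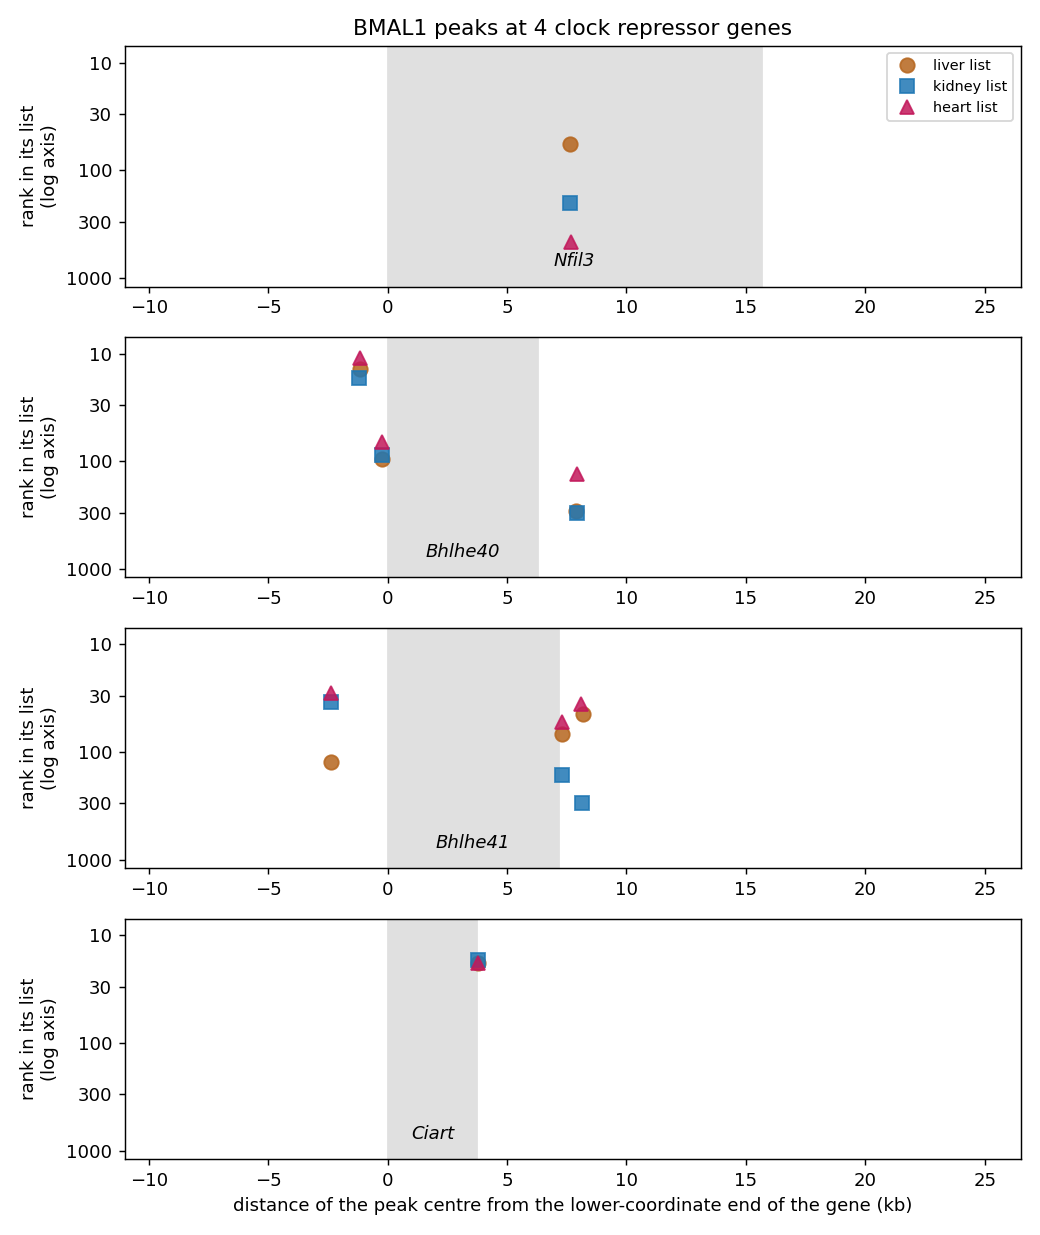
BMAL1 peaks at the 4 genes, with the distance of each peak centre from the lower-coordinate gene end in kb on the horizontal axis and the rank of the peak in its own list on a reversed log axis. Grey bands span the annotated genes and markers stand for the 3 lists. Peaks of the 3 lists fall at the same positions, outside the gene at Bhlhe40, Bhlhe41 and Ciart and inside it at Nfil3, and the lists part most in rank at Nfil3 and at the right-hand Bhlhe41 site.

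Bhlhe40 (chr6:108660629-108666925), which encodes an E-box-binding repressor induced by the clock and by many other signals, had its highest site outside the gene, beyond the lower-coordinate end. There the score was 269 in liver (rank 14, chr6:108659342-108659583), 219 in kidney (rank 17, chr6:108659362-108659549) and 250 in heart (rank 11, chr6:108659379-108659576). In each list this was the highest peak on chromosome 6. Its centre was 1.15 to 1.17 kb outside the gene in the 3 lists. A second site followed closer to the same end, 0.224 to 0.245 kb outside it, with scores of 167 in liver (rank 95), 138 in kidney (rank 87) and 133 in heart (rank 66). The liver peak of that site is chr6:108660263-108660504. Both sites lay inside the annotated span of the long noncoding RNA gene 0610040F04Rik, which overlaps this end of Bhlhe40, so they are not assigned to either gene alone. The third site lay beyond the opposite end, by 1.61 to 1.62 kb. It scored 119 in liver (rank 292, chr6:108668413-108668654), 84 in kidney (rank 303) and 103 in heart (rank 131). The order of the 3 sites was the same in every list, with the outermost one at the lower-coordinate end first and the one beyond the opposite end last. No strand for Bhlhe40 was used, so its start was not told from its end.

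Bhlhe41 (chr6:145858243-145865420) encodes the closest relative of BHLHE40. It also had 3 sites, of which 2 lay upstream of the start and 1 beyond the far end of the gene. The promoter site, whose sequence is printed above, was centred at -135.5 bp (liver), -147.5 bp (kidney) and -146.5 bp (heart) from the start. Its score was 184 in liver (rank 68), 107 in kidney (rank 164) and 149 in heart (rank 53). The upstream site lay at -0.99 kb in liver, -0.97 kb in kidney and -0.94 kb in heart, and it scored 205 in liver (rank 44, chr6:145866294-145866535), 85 in kidney (rank 298, chr6:145866298-145866485) and 170 in heart (rank 36, chr6:145866262-145866459). The downstream site lay 2.35 to 2.38 kb beyond the gene's far end. It scored 157 in liver (rank 123, chr6:145855744-145855985), 181 in kidney (rank 34, chr6:145855797-145855984) and 183 in heart (rank 28, chr6:145855770-145855967).

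The order of the 3 Bhlhe41 sites therefore differed between lists. In liver the upstream site scored highest and the downstream site lowest, and in kidney the order was the reverse. In heart the downstream site came first and the promoter site last. No replicate spread stands behind any of these orders. The arrangement around the gene was similar for both Bhlhe genes. Each had a pair of sites beyond 1 end, 921 to 943 bp apart at Bhlhe40 and 794 to 859 bp apart at Bhlhe41, and another site 1.61 to 2.38 kb beyond the other end. The outer site of the pair scored above the inner one in all 3 lists at Bhlhe40, and in liver and heart but not in kidney at Bhlhe41.

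Ciart (chr3:95878500-95882257), the gene of the BMAL1-binding repressor CHRONO, had 1 site, at its promoter. The score was 255 in liver (rank 18, chr3:95882182-95882423), 219 in kidney (rank 17, chr3:95882210-95882397) and 220 in heart (rank 18, chr3:95882204-95882401). It was the highest peak on chromosome 3 in kidney and heart and the second highest in liver. The ranks stayed within 1 place of each other over lists of 4813, 4034 and 2519 peaks. The centre lay at -74.5 bp from the start in liver and heart and at -75.5 bp in kidney, and the 3 E-boxes printed above were centred 113.5, 55.5 and 41.5 bp upstream of the start. This site also lies inside the annotated span of the noncoding gene C920021L13Rik and within 10 kb of the protein-coding gene BC028528, which by the same rule takes the same peaks.

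Nfil3 (chr13:52967209-52982878), the gene of the D-box repressor, was the only gene of the 4 with its site inside the gene, 6.17 to 6.18 kb downstream of the RefSeq start behind its promoter window. The annotated gene reaches 1.84 kb upstream of that start. The exon structure was not used here, so intron and exon were not told apart. The score was 191 in liver (rank 57, chr13:52974738-52974979), 100 in kidney (rank 203, chr13:52974773-52974960) and 51 in heart (rank 464, chr13:52974775-52974972). It was the highest peak on chromosome 13 in the liver list, the fourth in the kidney list and number 15 in the heart list. As a share of its list the site stood at 1.18% from the top in liver, 5.03% in kidney and 18.4% in heart, which was the lowest heart position of the 8 sites.

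The lists differ in length and, possibly, in sensitivity. The sites were therefore also ranked among the 519 regions found in all lists, a set that is the same in each, with this measure chosen after the values were seen. Nfil3 ranked 50 of 519 in liver, 165 in kidney and 348 in heart. At Bhlhe41 the upstream site ranked 39 in liver, 221 in kidney and 35 in heart. Its downstream site stood the other way round, at 100 in liver, 34 in kidney and 27 in heart. By contrast Ciart ranked 16, 17 and 18, and the outermost Bhlhe40 site 14, 17 and 11.

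Compared with all common regions, 2 of the 8 sites stood near the edge of the distribution. The position of Nfil3 from the top of its list, as a percentage, was 15.6 times as far down in heart as in liver, and 6 of the 519 regions (1.16%) had a higher ratio. For the upstream Bhlhe41 site the position in kidney was 8.08 times as far down as in liver, and again 6 of 519 regions had a higher ratio. From kidney to heart the same site had a ratio of 0.193, with 516 regions (99.4%) above it. The downstream Bhlhe41 site had a ratio of 0.33 from liver to kidney, which 92.3% of regions exceeded. At Ciart the ratios were 1.13 from liver to kidney and 1.91 from liver to heart, exceeded by 37.6 and 23.5% of regions. No region can stand below the bottom of a list, so regions already far down the first list could not reach the high ratios. At 6.07% from the top of the liver list, the third Bhlhe40 site was already 187 of the 519 in liver. Regions near the top of the first list could not reach the low ratios either. These shares of regions are therefore not matched for standing. The highest or lowest among 8 sites is likelier to stand at an edge than a single site named in advance, and with 1 pooled list per tissue no ratio has an error.

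**Figure D3:**
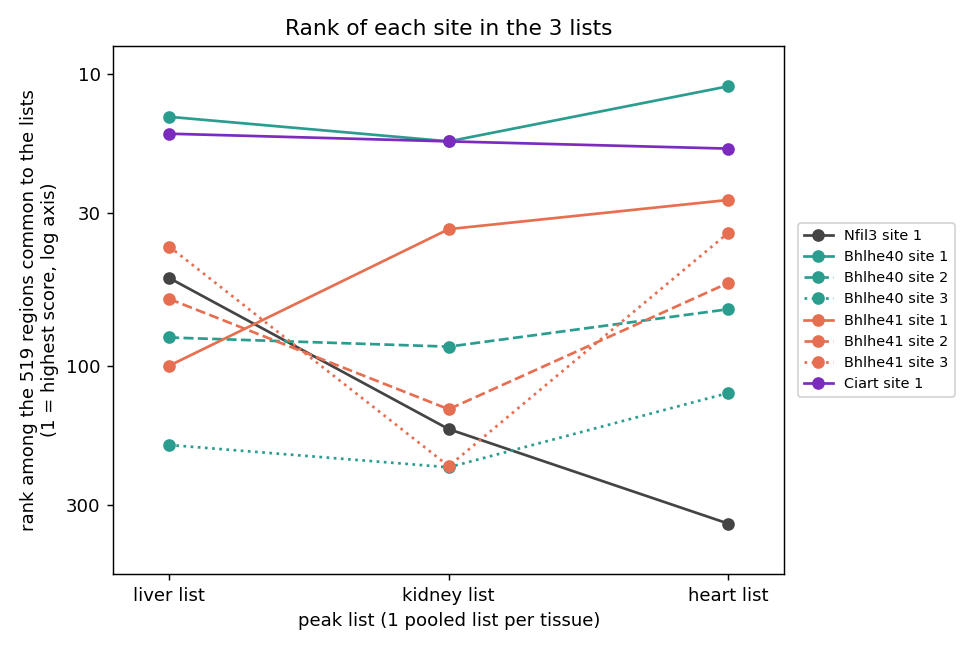
Rank of each site among the 519 regions common to the lists (reversed log axis, 1 is the highest score) in the liver, kidney and heart lists; sites are numbered within a gene by rising coordinate, and lines join 1 site and carry no trend. Ciart and Bhlhe40 site 1 keep ranks of 11 to 18, while Nfil3 goes from 50 in liver to 348 in heart and Bhlhe41 sites 1 and 3 change places between liver and kidney.

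The 4 genes were set beside 15 other clock genes: the activators Arntl, Clock and Npas2, the period, cryptochrome and REV-ERB repressors, the activators Rora and Rorb and the D-box activators Dbp, Tef and Hlf. Of these 15 genes, 11 had a liver peak, 12 a kidney peak and 12 a heart peak, and 10 had a common region, against 3.13% of all protein-coding genes. Ordered by their highest peak among all 19 genes, Bhlhe40 stood at place 6 in liver, 9 in kidney and 8 in heart, and Ciart at 7, 9 and 10. Bhlhe41 stood at place 12 in all 3 lists. Nfil3 stood at 13, 14 and 14, above Rora in each list (best ranks 1408, 1037 and 1826), the gene of an activator of Arntl transcription. Genes without a peak in a list took no place in it. Besides Rora, only Hlf stood below Nfil3 in liver, only Arntl in kidney and only Clock in heart. Of the 15 genes, 4 had 3 common regions (Nr1d1, Dbp, Tef and Hlf), as both Bhlhe genes did.

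**Figure D4:**
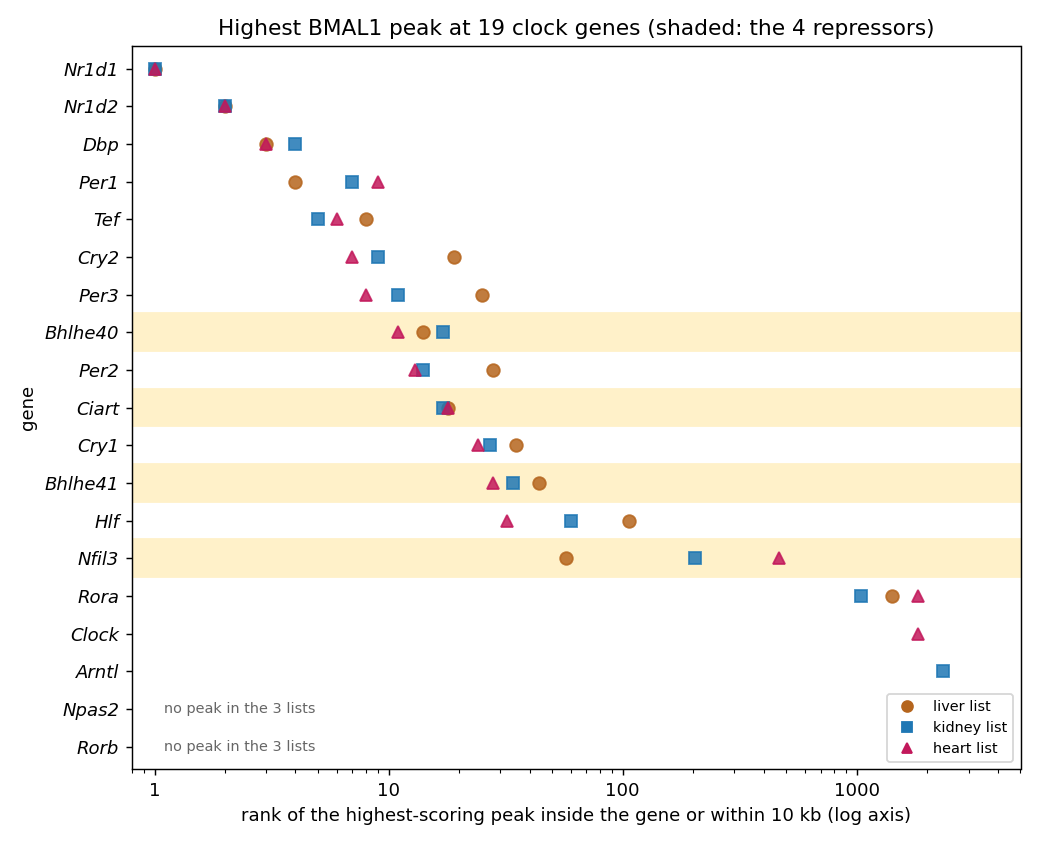
Rank of the highest-scoring BMAL1 peak inside or within 10 kb of each of 19 clock genes, on a log axis, with 1 marker per peak list and the 4 repressor genes shaded. Bhlhe40 and Ciart lie at ranks 11 to 18 beside the period and cryptochrome genes, Bhlhe41 at 28 to 44, and Nfil3 between 57 and 464.

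The genes with the most similar standing were sought among the 953 protein-coding genes with a peak in every list, by the sum over the 3 lists of absolute differences in log2 of the best rank. Bhlhe40 and Ciart were among each other's nearest (sum 1.07), with Per2 as the third for both (1.52 from Bhlhe40 and 1.39 from Ciart). BC028528 tied with Ciart for Bhlhe40 because it takes the Ciart peaks, and 1810013L24Rik was second for Ciart (1.23). Nearest to Bhlhe41 were Dnah2 and Kdm6b (sum 0.50), and Pfkfb3 (0.77). Dnah2 and Kdm6b had identical best ranks of 47, 33 and 36, so they may take the same peaks and are not 2 separate likenesses in that case. Nearest to Nfil3 were Mab21l3 (1.36, best ranks 88, 317 and 494), Ttc39b (1.5) and Hdgf (1.69). Each likeness rests on 3 ranks.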

How the data were processed

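BMAL1 ChIP-seq peaks were analysed in liver, kidney and heart, with 3 ChIP and 3 input libraries per tissue, grouped by title. Per the labels, the authors combined the ChIP and input libraries of a tissue into 1 list of peaks. The submitters' processing notes name Bowtie2, SAMtools, HOMER and the build mm10, without versions or roles; the peak filters are unknown here. The score deposited by the authors has no stated scale and was used only to rank peaks within a list. Depth is unknown and no value per animal was used.

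Peaks were placed by their centre against the RefSeq gene table of GRCm38.p6 (Python 3.11.15, pandas 2.3.3), with coordinates counted from 1. Peaks of different lists overlapping by at least 1 bp formed a region. Background shares are over all protein-coding genes on the 20 chromosomes of the lists. Motifs were searched on both strands in RefSeq promoter windows on 19 of these chromosomes, because no genome was used here; the planned search of all peaks was limited to these windows. Intervals came from scipy 1.17.1. Placement, merging and motif search were tested on simulated data. Named genes were the 4 genes, 15 clock genes (another gene of that list is not reported here), for each member the 3 genes closest in rank outside its own neighbourhood, and neighbours of the peaks. The genes with 3 common regions were named after their values were seen. Members and lists were chosen with earlier results of these data known.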

Additional observations from a re-analysis of the deposited data

How the results depend on the processing

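Counting only peaks with the centre inside a gene left 1 peak in each of the liver, kidney and heart lists and 1 common site, that of Nfil3, since the other 7 sites lie just outside the annotated genes. Windows of 5 and 50 kb, placing peaks by any base, the upper 50% and the top 1000 of each list, and 3 other rules for sharing each kept the counts they were tried on within 1.5 times the reported ones. The count of common sites did change under 1 sharing rule. Joining centres within 1000 bp gave 6 sites rather than 8, since the pairs at both Bhlhe genes lie 794 to 943 bp apart. The 12 best ranks were recomputed under 3 alternatives each and 28 of the 36 values were identical to the reported rank. The largest change was from 464 to 451, for Nfil3 in heart with the 50 kb window. Most of these settings could change little by construction, since every site lies within 2.38 kb of its gene, so they say nothing about stability between animals. No paired analysis was possible because the lists pool the replicates, and for the same reason no replicate was left out. The planned search of 200 bp around every peak was not run, since no genome was used here. Unknown depth limits any comparison between lists.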

Other observations

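Beyond the 10 kb limit and up to 60 kb from the 4 genes, no peak was common to the 3 lists. The nearest excluded peak was at Ciart, in the kidney list, 13.2 kb from the gene and inside Mrps21, with a score of 39 (rank 1249). The farthest included site was the downstream site of Bhlhe41, 2.35 to 2.38 kb from the gene. Up to 60 kb away there were 5 further peaks around Ciart, 3 around Bhlhe41, 1 around Nfil3 and none around Bhlhe40, where the nearest other peak was 89.5 kb away in the liver list. Around Ciart a liver and a kidney peak shared a site inside Car14, the gene of a carbonic anhydrase, 21.7 kb from Ciart (scores 42 and 44). A further liver peak lay 22.9 kb away (score 61, rank 1293). Around Bhlhe41, liver and kidney shared a site inside Rassf8 (ranks 1997 and 2591), 48.4 to 48.5 kb away.

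The 1 further peak around Nfil3 was in the heart list alone, 26.2 kb beyond the higher-coordinate end of the gene, inside the noncoding genes Gm33424 and Gm33519 (chr13:53008947-53009144). Its score was 52 (rank 451), next to 51 (rank 464) for the heart peak inside Nfil3. Neither liver nor kidney, where the site inside Nfil3 stood higher in the list, had a peak at that place.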
